A study of Mus musculus with 8 samples.

Results

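The genes described here are 10 transcripts of lymphocytes and of lymphoid tissue, chosen by their symbols among the 15047 genes measured in pancreas. All 10 were found. They comprised 3 B lymphocyte genes (Cd79a, Cd79b and Ms4a1), 3 T lymphocyte genes (Cd3e, Cd4 and Cd8a) and 4 genes of lymphoid trafficking (the receptors Ccr7 and Cxcr5, the cytokine gene Ltb and the chemokine gene Ccl21a). The RNA of pancreas tissue was sequenced from 8 male mice. The lean group was 3 C57BL/6 WT mice that received a low-fat diet (LFD) from 4 weeks of age and for 10 weeks, and the diet-induced obesity group was 3 C57BL/6 WT mice given a high-fat diet (HFD), in which fat supplied 60% of the calories, for the same time. The third group was 2 leptin-deficient C57BL/6J ob/ob mice, also 4 weeks old at the start and kept on standard chow. They are obese by genotype and therefore differ from LFD mice in both genotype and food. All of these mice bore, by the methods of the study, an orthotopic transplant of mT organoids, which derive from tumours of mice with Pdx1-Cre driven mutations, Trp53 among them, and which the LFD controls therefore carried too. The labels state only pancreas and do not tell tumour from surrounding tissue. The acinar enzyme genes that define this tissue were at high levels in every mouse.

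B lymphocytes recognise antigen through a membrane immunoglobulin that signals by the paired proteins Cd79a and Cd79b, and most of them carry Ms4a1 (CD20) on the surface. T lymphocytes signal through the CD3 complex, of which Cd3e is a chain, and the co-receptors Cd4 and Cd8a mark the helper and the cytotoxic lineage. Lymphocytes are positioned in lymphoid tissue by chemokines. Ccl21a is made by stromal and lymphatic endothelial cells and attracts cells with Ccr7, which are naive T lymphocytes and mature dendritic cells, whereas Cxcr5 guides B lymphocytes to follicles and Ltb encodes lymphotoxin beta, which lymphocytes use to maintain lymphoid stroma.

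For 5 of the 10 genes a promoter was given in RefSeq (GRCm38.p6), and 3 of them held the letters ACAGGAAG, a core bound by ETS factors, within 250 bases before the RefSeq start. The 3 sites are shown because they come from a B, a T and a trafficking gene. In Cd79a the letters lie 57 to 50 bases before the RefSeq start (chr7:24897429-24897458, + strand), in Cd3e 17 to 10 bases before it (chr9:45009610-45009639, + strand, opposite to the gene), and in Ltb 120 to 113 bases before it (chr17:35194376-35194405, + strand). Gencode M21 starts Cd79a at chr7:24897381, so by that annotation the Cd79a site lies within the gene. It starts Cd3e at chr9:45009627 (- strand), a position that the Cd3e stretch spans. The Ltb site lies before both starts. Capitals mark the matching letters.
Cd79a: ggcacggctgaACAGGAAGtgaggcggagt
Cd3e: ctgaaccccacACAGGAAGtgtagagggga
Ltb: gcgctgggtaaACAGGAAGctgggtgaggg

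The Ltb promoter also held GGACTTTCC, an NF-kB site, on the opposite strand 87 to 79 bases before the start. The stretch of chr17:35194257-35194438 (+ strand, 182 bases), which ends before the Gencode M21 start of the gene, shows both sites in capitals, the NF-kB letters as their reverse complement.
Ltb: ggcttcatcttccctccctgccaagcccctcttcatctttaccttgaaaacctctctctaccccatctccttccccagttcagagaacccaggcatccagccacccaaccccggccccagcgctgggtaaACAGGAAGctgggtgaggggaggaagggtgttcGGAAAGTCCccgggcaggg

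Over 32851 RefSeq promoters, ACAGGAAG was found on either strand in 2.9% and GGACTTTCC in 0.283%. The E-box CAGGTG, held by 17.2% of all promoters, was found in those of Cd79a and Ltb. The octamer ATGCAAAT (1.6% of promoters) and the EBF motif TCCCNNGGG (5.6%) were found in none of the 5, and neither the promoter of Ccl21a nor that of Cd8a held any of the motifs. The motifs were chosen after the sequences had been read, and the matches are descriptions of letters.

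The values are rlog values, the logarithm to base 2 of counts corrected for library size in which the differences of genes with few reads are shrunk. An increase of 1 is therefore a 2-fold change or, for low genes, more. The median rlog value of a mouse lay between 7.09 and 7.25, and 9 of the 10 genes had low means for this table, with 6.92% (Cxcr5) to 24.1% (Ccr7) of genes below them. Ccl21a was the exception, with 46.9%. The values are not scaled to transcript length, so they are compared between mice and not between genes. In bulk tissue, fewer lymphocytes and less RNA per lymphocyte cannot be told apart.

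LFD replicate 2 stood apart from all other mice in these genes. It held the highest value of the 8 mice for 7 of the 10 genes (all but Cd4, Cd8a and Ccr7), whereas it held the highest value for 9.1% of all genes. Its value was at least 1 above the mean of the other LFD mice for 9 of the 10 genes (all but Cd4), compared with 2.82% of all genes, and over all genes the median of this difference was 0.02. It was widest for Cd79b, at 2.62 (6.15-fold on the deposited scale). The 10 genes and the further gene lists are therefore compared with LFD mice both with and without this mouse, while single genes outside the 10 are given with all mice unless stated. Leaving out this mouse lowers the LFD mean most for genes that were high in it. A rise of their differences therefore follows in part from this choice.

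The other markers of B and T lymphocytes, from lists written by hand, were high in the same mouse. LFD replicate 2 was the highest mouse for 14 of 20 further B lymphocyte genes and 14 of 20 further T lymphocyte genes. Pax5, the transcription factor of B lymphocyte identity, had a value of 7.13 in this mouse and between 1.57 and 2.80 in the other 7. For myeloid genes it was the highest mouse in 0 of 10, and for acinar genes in 2 of 20, with a median difference from the other LFD mice of 0.20 and -0.05, respectively. The rise was not confined to lymphocyte genes. The median difference was 1.02 over 6 pan-leukocyte genes, 0.88 over 8 dendritic cell genes and 0.86 over 7 genes of effector, regulatory and NK cells, although LFD replicate 2 was the highest of all mice for 1, 2 and 0 of them.

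Genes of lymph node stroma were in part high there as well. Cr2, carried by follicular dendritic cells and B lymphocytes, was at 5.66 in LFD replicate 2 and between 2.69 and 4.47 in the other mice. Fut7, a glycan enzyme of high endothelium, was at 2.91 against 1.33 to 2.31. Chst4, another such enzyme, was at 3.76, below HFD replicate 3 with 4.18, and Cxcl13, the ligand of Cxcr5, was at 5.87, within the range of the others. Madcam1 was at 2.75, below HFD replicates 1 to 3 (3.07, 2.97 and 3.39) and ob/ob replicate 1 (4.20). Enpp6 was at 2.80, below ob/ob replicate 1 with 3.12. Cr2 is also among the further B lymphocyte genes counted above. The defining genes Glycam1 and Fdcsp are not among the genes of the table. Whether lymph node tissue contributed to this sample was not tested.

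**Figure D1:**
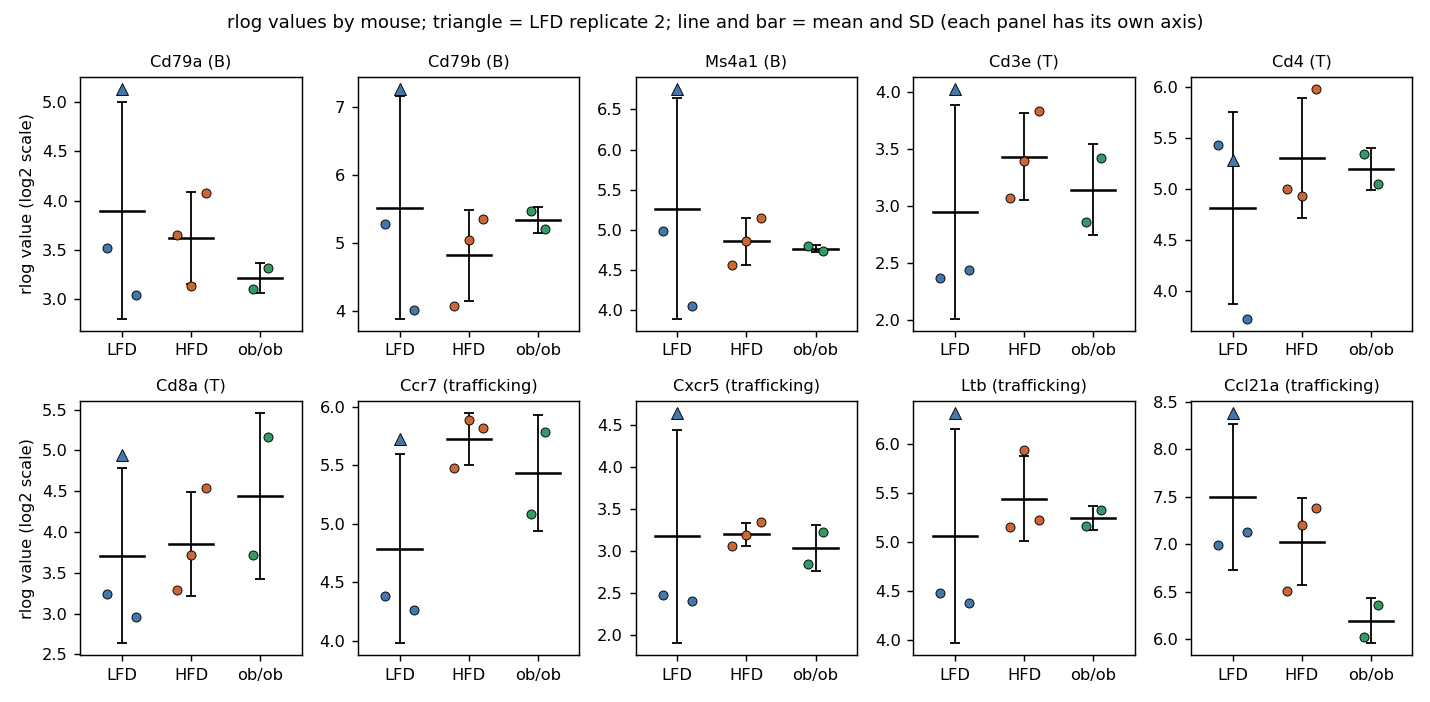
rlog values (log2 scale, own axis in each panel) of the 10 genes in each mouse, with the mean and SD of each group. LFD replicate 2, drawn as a triangle, lies above both other LFD mice for all genes except Cd4, and the 2 ob/ob mice lie below all other mice for Ccl21a.

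**Figure D2:**
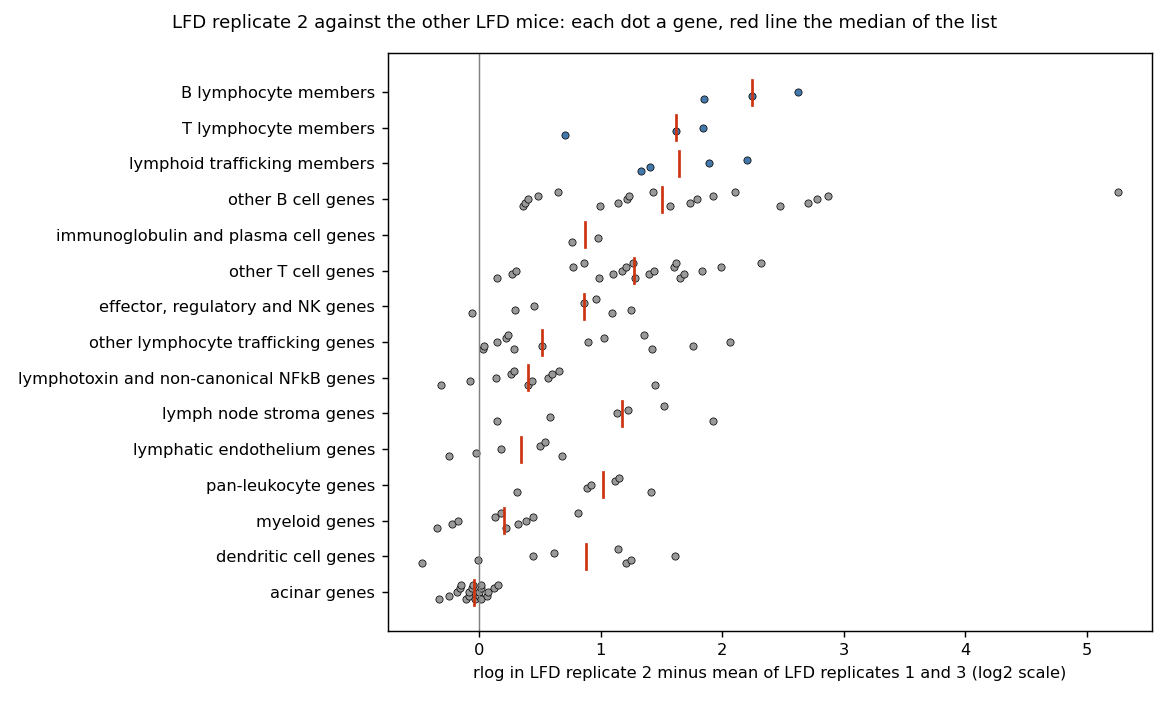
Difference in rlog value (log2 scale) between LFD replicate 2 and the mean of LFD replicates 1 and 3, with 1 dot per gene and the median of each list as a red line. The 3 B lymphocyte genes have a median of 2.24, the T lymphocyte genes 1.62 and the trafficking genes 1.64, compared with -0.05 for the acinar genes.

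No difference of the B lymphocyte genes between the groups exceeded the spread of the mice. Cd79a had values of 3.52, 5.13 and 3.04 in LFD replicates 1 to 3, of 3.65, 3.14 and 4.07 in HFD replicates 1 to 3, and of 3.10 and 3.32 in the ob/ob mice. The highest LFD mouse lay above all obese mice and the lowest LFD mouse below them, so the groups overlapped. The mean was 3.90 ± 1.10 (SD, n = 3) in LFD, 3.62 ± 0.47 (n = 3) in HFD and 3.21 ± 0.15 (n = 2) in ob/ob mice.

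Cd79b, the partner chain, was at 5.28, 7.27 and 4.02 in LFD, at 4.07, 5.04 and 5.34 in HFD, and at 5.47 and 5.20 in ob/ob mice. Its LFD mice spanned the values of all others. The difference between HFD and LFD was -0.70 (SE 0.73, limma adjusted p = 0.598). Ms4a1 was at 4.99, 6.76 and 4.04 in LFD, at 4.56, 4.86 and 5.14 in HFD, and at 4.80 and 4.74 in ob/ob mice. The obese mice lay close together between the lowest and the highest LFD mouse, with a difference of -0.41 (SE 0.60, adjusted p = 0.713) for HFD and of -0.50 (SE 0.67, adjusted p = 0.683) for ob/ob against LFD.

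All 3 B lymphocyte genes had a lower mean in HFD and in ob/ob than in LFD mice, with a median difference of -0.41 and -0.50 against 0.03 and 0.04 for all genes. This direction rested on LFD replicate 2. Without it the HFD differences were positive for all 3, at 0.34 for Cd79a, 0.17 for Cd79b and 0.34 for Ms4a1, and the ob/ob differences were -0.07, 0.69 and 0.25.

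Of the 20 further B lymphocyte genes, none passed an adjusted p of 0.05 in any comparison. Their median difference was -0.09 in HFD and -0.10 in ob/ob against LFD, and 0.28 and 0.50 without LFD replicate 2. Pax5 had the most negative difference in both comparisons, -1.54 (SE 1.24, adjusted p = 0.491) and -1.29 (SE 1.39, adjusted p = 0.606), which became 0.21 and 0.46 without that mouse. The most positive was Btk, a kinase of the B lymphocyte receptor that myeloid cells express too, at 1.28 (SE 0.32, adjusted p = 0.179) in HFD and 1.45 (SE 0.36, adjusted p = 0.179) in ob/ob mice, with all 5 obese mice between 5.95 and 6.85 and the LFD mice between 4.56 and 5.21. Vpreb3, of the pre-B cell receptor, was at 2.85, 3.63 and 3.11 in LFD and at 2.39, 1.56 and 1.81 in HFD (difference -1.28, SE 0.44, adjusted p = 0.204), but at 3.01 and 1.42 in ob/ob mice. Blk had the next most positive HFD difference, 0.69 (SE 0.65, adjusted p = 0.557), and Blnk the next in ob/ob, 0.71 (SE 0.39, adjusted p = 0.329). With LFD replicate 2 left out they were at 1.52 (adjusted p = 0.312) and 0.88 (adjusted p = 0.391). Most immunoglobulin genes searched for are not in the table. The plasma cell genes Jchain and Mzb1 differed from LFD by -0.27 and -0.34 in HFD and by -0.33 and -0.53 in ob/ob mice, with adjusted p between 0.563 and 0.798. These differences were both -0.01 in HFD, and -0.07 and -0.21 in ob/ob mice, without LFD replicate 2.

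The T lymphocyte genes had higher means in both obese groups than in LFD mice, again within the spread of the LFD mice. Cd3e was at 2.37, 4.03 and 2.44 in LFD, at 3.07, 3.39 and 3.83 in HFD, and at 2.86 and 3.42 in ob/ob mice. All 5 obese mice lay above LFD replicates 1 and 3 and below LFD replicate 2. The difference was 0.49 (SE 0.47, adjusted p = 0.569) in HFD and 0.19 (SE 0.52, adjusted p = 0.854) in ob/ob mice.

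Cd4 was at 5.43, 5.29 and 3.73 in LFD, at 4.997, 4.93 and 5.98 in HFD, and at 5.34 and 5.05 in ob/ob mice. LFD replicate 3 was the low mouse here, and LFD replicate 2 was not high. Macrophages and dendritic cells may also carry Cd4 transcripts, so the gene is not particular to T lymphocytes in bulk tissue. Its differences were 0.49 (SE 0.49, adjusted p = 0.584) in HFD and 0.38 (SE 0.55, adjusted p = 0.709) in ob/ob mice.

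Cd8a was at 3.24, 4.94 and 2.95 in LFD, at 3.29, 3.72 and 4.54 in HFD, and at 3.72 and 5.16 in ob/ob mice. The highest value of all mice was that of ob/ob replicate 2, and the second highest that of LFD replicate 2. The mean was 3.71 ± 1.07 (SD, n = 3) in LFD, 3.85 ± 0.64 (n = 3) in HFD and 4.44 ± 1.02 (n = 2) in ob/ob mice, so the order of the groups had no neighbours that differed beyond their spread. Within a mouse, Cd8a minus Cd4 ranged from -2.19 in LFD replicate 1 to 0.11 in ob/ob replicate 2, and the ob/ob mice alone spanned -1.62 to 0.11.

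Without LFD replicate 2, the differences of HFD from LFD became 1.03 (SE 0.34) for Cd3e, 0.73 (SE 0.56) for Cd4 and 0.76 (SE 0.53) for Cd8a, with limma adjusted p between 0.339 and 0.527. Those of ob/ob mice became 0.74 (SE 0.37), 0.62 (SE 0.61) and 1.35 (SE 0.58), with adjusted p between 0.363 and 0.609. The mean of the acinar genes was 18.2 to 18.6 in LFD mice, and 18.5, 16.4 and 14.5 in HFD replicates 1 to 3. HFD replicate 3, with the lowest acinar mean, had the highest HFD value of all 3 T lymphocyte genes. In the ob/ob mice the acinar mean was 17.8 and 14.8. Cd3e and Cd8a were higher in the second of them, whereas Cd4 was lower (5.34 and 5.05). With the acinar mean as a covariate, the Cd8a differences turned to -0.59 (SE 0.57, adjusted p = 0.749) and -0.05 (SE 0.62, adjusted p = 0.987), and the Cd3e differences were 0.12 and -0.20. Those of Cd4 stayed positive, at 0.20 and 0.08.

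Of 20 further T lymphocyte genes, 11 had a higher mean in HFD and 17 in ob/ob than in LFD mice, none with an adjusted p under 0.05. All 20 were higher in both obese groups without LFD replicate 2, with median differences of 0.62 and 0.73 against 0.04 and 0.05 for all genes, and again none passed the adjusted threshold. Il7r, the receptor for the survival cytokine of lymphocytes, had the most positive difference with all mice, 1.02 (SE 0.34, adjusted p = 0.200) in HFD and 1.03 (SE 0.38, adjusted p = 0.232) in ob/ob mice. Its obese mice lay between 5.77 and 6.30 and its LFD mice between 4.40 and 5.58. Thy1, found on T lymphocytes and also on fibroblasts, followed with 0.88 in both comparisons (SE 0.28 and 0.31, adjusted p = 0.192 and 0.223). At the other end, Themis was at -0.27 and Cd2 at -0.19 in HFD, and Lef1 at -0.22 and Cd2 at -0.21 in ob/ob mice, with adjusted p between 0.691 and 0.823. The constant chain genes Trac, Trbc1 and Trbc2 are not in the table.

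Among 7 measured genes of effector, regulatory and NK cells, all had a higher mean in HFD and 6 a higher mean in ob/ob than in LFD mice, with median differences of 0.17 and 0.71 and none past the adjusted threshold. All 7 were higher in both groups without LFD replicate 2, with medians of 0.45 and 0.998 and again none past that threshold. At an unadjusted p under 0.05 in limma, 0 of the 7 passed in either group with all mice, where 11.5% and 11.6% of all genes were higher. Without this mouse 0 passed in HFD (9.23% of all genes higher) and 2 in ob/ob mice (9.94%), Nkg7 and Ccl5. In that ob/ob fit 7 of the 20 further T lymphocyte genes and 9 of 10 myeloid genes were also higher at this threshold. Nkg7, a granule protein of cytotoxic cells, was at 3.06, 3.96 and 2.69 in LFD, at 2.61, 3.88 and 3.67 in HFD, and at 3.95 and 4.42 in ob/ob mice (difference of ob/ob from LFD 0.95, SE 0.50, adjusted p = 0.317). Icos, a costimulatory receptor, followed with 0.79 (SE 0.48, adjusted p = 0.374), and Klrb1c, of NK cells, had the lowest ob/ob difference, -0.04. In HFD mice Gzmb was highest with 0.47 and Ccl5 next with 0.42, and Ctla4 and Prf1 were lowest with 0.05 and 0.12. The ob/ob difference of Prf1 was 0.43. Foxp3, which defines regulatory T lymphocytes, is not in the table.

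Ccr7 had the largest positive difference among the 10 genes in HFD mice. It was at 4.38, 5.72 and 4.26 in LFD, at 5.47, 5.88 and 5.82 in HFD, and at 5.09 and 5.78 in ob/ob mice. LFD replicates 1 and 3 lay below all obese mice, and LFD replicate 2 lay among them. The difference from LFD was 0.94 (SE 0.42, limma adjusted p = 0.258) in HFD and 0.65 (SE 0.47, adjusted p = 0.444) in ob/ob mice. Without LFD replicate 2 it was 1.41 (SE 0.33, adjusted p = 0.312) and 1.11 (SE 0.36, adjusted p = 0.321).

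Dendritic cells carry Ccr7 when mature, and their markers are given beside it. Itgax was at 7.59, 7.38 and 6.30 in LFD, at 7.92, 9.21 and 9.37 in HFD, and at 7.87 and 9.29 in ob/ob mice, so every obese mouse lay above every LFD mouse. Ccl22, a chemokine of mature dendritic cells, differed from LFD by 1.42 in HFD and 1.18 in ob/ob mice (adjusted p = 0.199 and 0.272). Of the 8 dendritic cell genes, 6 had a higher mean in each obese group, while Siglech, of plasmacytoid cells, was at -0.60 and -0.57 and Zbtb46 at -0.41 and -0.33. The median over the 8 was 0.55 in HFD and 0.26 in ob/ob mice. Again 6 were higher in each group without LFD replicate 2, with medians of 0.80 and 0.42, and Siglech was at -0.06 and -0.04. Their part in the Ccr7 values was not tested.

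Cxcr5 was at 2.47, 4.64 and 2.40 in LFD, at 3.06, 3.19 and 3.34 in HFD, and at 2.84 and 3.23 in ob/ob mice. The obese mice lay in a narrow band above LFD replicates 1 and 3 and below LFD replicate 2, and the means of the LFD, HFD and ob/ob groups were 3.17, 3.20 and 3.03. The closeness of these means rested on LFD replicate 2. With all mice the differences from LFD were 0.03 and -0.14, and without it they were 0.76 (SE 0.28, limma adjusted p = 0.347) in HFD and 0.60 (SE 0.31, adjusted p = 0.395) in ob/ob mice.

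Ltb was at 4.48, 6.31 and 4.38 in LFD, at 5.16, 5.94 and 5.22 in HFD, and at 5.16 and 5.33 in ob/ob mice, and the obese mice again lay between the low pair of LFD mice and LFD replicate 2. Its difference from LFD was 0.38 (SE 0.51, adjusted p = 0.688) in HFD and 0.19 (SE 0.57, adjusted p = 0.870) in ob/ob mice, and 1.01 and 0.82 without LFD replicate 2 (adjusted p = 0.339 and 0.374). For Ltb, the gene with both promoter sites shown above, the highest values were those of LFD replicate 2 and HFD replicate 2.

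Around Ltb, 10 of 11 further genes of lymphotoxin and the non-canonical NF-kB route had a higher mean in each obese group than in LFD mice, with medians of 0.61 and 0.77 and none with an adjusted p under 0.05. The counts were also 10 and 10 without LFD replicate 2, with medians of 0.95 and 0.92. Tnf was at 4.80, 4.88 and 3.77 in LFD and at 5.08, 6.54 and 5.54 in HFD (difference 1.23, SE 0.45, adjusted p = 0.212). Tnfsf14, the ligand LIGHT, which shares the lymphotoxin beta receptor, was between 3.25 and 3.74 in LFD and between 3.90 and 4.94 in obese mice (ob/ob difference 1.20, SE 0.37, adjusted p = 0.207). Tnfrsf14, another receptor of that ligand, had an HFD difference of 1.03 (SE 0.54, adjusted p = 0.309), and Tnfrsf11a, the receptor RANK, an ob/ob difference of 1.27 (SE 0.46, adjusted p = 0.226). The receptor gene Ltbr, which stromal and epithelial cells express, stayed between 8.79 and 9.18 in all mice. Tnfsf13b, the B lymphocyte survival factor BAFF, differed by 0.43 and 0.21 (adjusted p = 0.479 and 0.768). Lta is not in the table.

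Of 13 further lymphocyte trafficking genes, 7 had a higher mean in HFD and 8 in ob/ob than in LFD mice, with medians of 0.04 and 0.26. The counts became 9 and 9 and the medians 0.29 and 0.37 without LFD replicate 2, and no gene passed an adjusted p of 0.05 in either case. Cxcr4, a receptor of lymphocytes and myeloid cells, had the most positive difference in both, 1.27 (SE 0.49, adjusted p = 0.222) and 1.36 (SE 0.55, adjusted p = 0.250). Cxcl9, an interferon-induced chemokine for T lymphocytes, was between 3.80 and 4.75 in LFD and between 4.78 and 6.11 in obese mice, with differences of 1.16 (SE 0.43, adjusted p = 0.214) and 1.01 (SE 0.48, adjusted p = 0.283). Ccl19, the other ligand of Ccr7, had the most negative difference, -0.44 (SE 0.39, adjusted p = 0.533) and -0.84 (SE 0.44, adjusted p = 0.319), which without LFD replicate 2 became 0.0065 and -0.39. Cxcl12 followed in ob/ob mice with -0.67, where ob/ob replicate 2 alone was low, and Ackr4, a scavenger of Ccl19 and Ccl21a, in HFD mice with -0.20.

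Ccl21a was the 1 gene of the 10 for which a group did not overlap with the others. It was at 6.99, 8.39 and 7.12 in LFD, at 6.50, 7.20 and 7.38 in HFD, and at 6.02 and 6.36 in ob/ob mice. Both ob/ob mice lay below every LFD mouse and below every HFD mouse, which held for 21.8% and 5.42% of all genes, respectively. HFD replicate 1 was the next lowest mouse. The mean was 7.50 ± 0.77 (SD, n = 3) in LFD, 7.03 ± 0.46 (n = 3) in HFD and 6.19 ± 0.24 (n = 2) in ob/ob mice.

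The difference of ob/ob from LFD mice was -1.31 (SE 0.45), with an unadjusted p of 0.0175 in limma, a threshold of 0.05 that 7.18% of all genes passed in this direction. The adjusted p was 0.220. Against HFD the difference was -0.84 (SE 0.45, adjusted p = 1), and between HFD and LFD it was -0.47 (SE 0.40, adjusted p = 0.511). Without LFD replicate 2 the ob/ob difference from LFD was -0.87 (SE 0.35, adjusted p = 0.354) and the HFD difference -0.03 (SE 0.32, adjusted p = 0.968).

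Ccl21a lies on chr4:42772860-42773993 (GRCm38, - strand, Gencode M21) beside near-identical copies. The annotation also gives this symbol to a gene on the scaffold JH584294.1 (121048-121713, - strand), which was not compared here. The Ccl21a transcript of 870 bases shared 80.6% of its stretches of 31 bases with other genes, all of them with Gm21541. The transcripts of both genes were 99.3% identical and differed at 6 bases, 2 of them in the coding part. The other 9 genes shared between 0% and 12.2%, so Ccl21a was the gene whose reads could be split between copies. The 30 bases around each coding difference are shown, at positions 145 to 174 and 255 to 284 from the 5′ end of the transcript, with the differing base in capitals.
Ccl21a, first window: agtgatggagggggTcaggactgctgcctt
Gm21541, first window: agtgatggagggggAcaggactgctgcctt
Ccl21a, second window: ggcaatcctgttctCaccccggaagcactc
Gm21541, second window: ggcaatcctgttctTaccccggaagcactc

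At both bases the annotated transcripts of Ccl21b, Gm13304 and Gm10591 had a base other than that of Ccl21a. Of these copies, Gm21541 alone is in the table, where it was at 6.37, 6.20 and 5.49 in LFD, at 3.74, 5.88 and 6.15 in HFD, and at 3.50 and 5.03 in ob/ob mice. Both ob/ob mice again lay below all LFD mice, and HFD replicate 1 and ob/ob replicate 1 were the low mice. LFD replicate 2 was not the highest mouse for this copy.

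Summed with Gm21541 on the linear scale, Ccl21a came to 7.71, 8.67 and 7.53 in LFD, to 6.70, 7.68 and 7.89 in HFD, and to 6.25 and 6.84 in ob/ob mice. The ob/ob mice remained below every LFD mouse, whereas ob/ob replicate 2 now lay above HFD replicate 1. The difference of ob/ob from LFD was -1.42 (adjusted p = 0.209), and that from HFD was -0.88 (adjusted p = 1). The sum of shrunken values is an approximation.

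**Figure D3:**
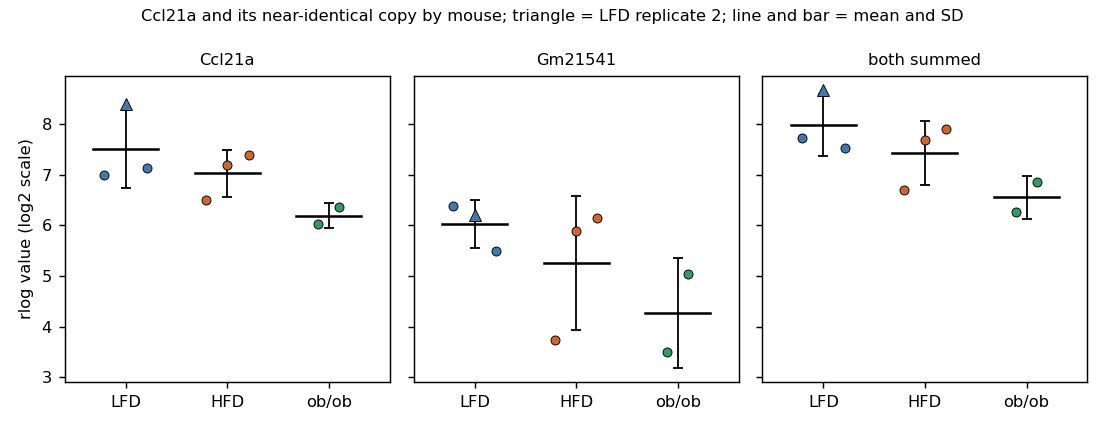
rlog values (log2 scale) of Ccl21a, of its copy Gm21541 and of their sum on the linear scale in each mouse, with the mean and SD of each group and LFD replicate 2 as a triangle. The ob/ob mice lie below the LFD mice in all 3 panels, and for the sum they overlap with the HFD mice.

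Listed genes of lymphatic endothelial cells, which are among the sources of Ccl21a, gave no common direction. Of 6 genes of lymphatic endothelium, 3 were higher and 3 lower in each obese group than in LFD mice, with and without LFD replicate 2. Prox1, their defining transcription factor, was between 5.64 and 6.02 in LFD mice and at 6.18 and 5.01 in ob/ob mice (difference -0.29, adjusted p = 0.653). Lyve1 was at 7.45 and 8.03 in ob/ob mice and between 6.39 and 7.54 in LFD mice, with a difference of 0.65 (adjusted p = 0.341) and, for HFD, of -0.30. Mmrn1 differed by -0.50 in ob/ob and -0.30 in HFD mice, and Flt4 by 0.40 in HFD mice. Pdpn, which fibroblasts also carry, had the most positive differences, 0.85 in HFD and 1.67 (SE 0.49, adjusted p = 0.200) in ob/ob mice, where ob/ob replicate 2 was highest at 9.40.

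Among 6 genes of lymph node stroma, 3 were higher in HFD and 4 in ob/ob than in LFD mice, with medians of -0.04 and 0.19. In the fit that left out LFD replicate 2, 4 were higher in each group, with medians of 0.36 and 0.47. Madcam1, an addressin of high endothelium, differed by 0.78 (SE 0.40, adjusted p = 0.300) and 1.10 (SE 0.44, adjusted p = 0.248), with ob/ob replicate 1 highest at 4.20. Cr2 differed by -0.71 and -0.97, and by -0.07 and -0.33 without LFD replicate 2. Chst4 differed by 0.43 in HFD and -0.96 in ob/ob mice, Fut7 by -0.23 in HFD and Enpp6 by 0.64 in ob/ob mice. The HFD difference of Fut7 was 0.27 without LFD replicate 2. With all mice, the adjusted p of these differences lay between 0.248 and 0.773.

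Over the 10 genes, no comparison gave an adjusted p under 0.05, nor did any of the 15047 genes, so the share of all genes was 0% in HFD against LFD, 0% in ob/ob against LFD and 0% in ob/ob against HFD. At an unadjusted p under 0.05, none of the 10 was higher or lower in HFD than in LFD mice (11.5% and 8.35% of all genes). For ob/ob against LFD none was higher (11.6%) and 1 was lower, Ccl21a (7.18% of all genes). Against HFD none was higher (2.28%) or lower (1.63%). The median difference of the 10 genes was 0.08 in HFD and 0.03 in ob/ob against LFD, close to the 0.03 and 0.04 of all genes.

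Without LFD replicate 2, 9 of the 10 genes had a higher mean in HFD and 8 in ob/ob than in the other LFD mice, with medians of 0.74 and 0.65. The medians of all genes were 0.04 and 0.05. All HFD mice lay above both remaining LFD mice for Cd3e, Cd8a, Ccr7, Cxcr5 and Ltb, 5 of 10 genes against 19.3% of all genes. Both ob/ob mice did so for the same 5 genes, against 30.8% of all genes. Both counts use the same 2 LFD mice. LFD replicate 2 was set apart because these 10 genes were high in it, which few of all genes were. Counts without this mouse are therefore raised by the choice itself, and the shares of all genes are no fair measure for them. At an unadjusted p under 0.05, 4 of the 10 were then higher in HFD (Cd3e, Ccr7, Cxcr5 and Ltb) against 9.23% of all genes, and none was lower (4.39%). In ob/ob mice 1 was higher (Ccr7), against 9.94% of all genes, and 1 lower (Ccl21a), against 3.83%. None of the 10 had an adjusted p under 0.05, as was the case for all genes (0%), and the lowest were 0.312 in HFD and 0.321 in ob/ob mice, both for Ccr7.

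**Figure D4:**
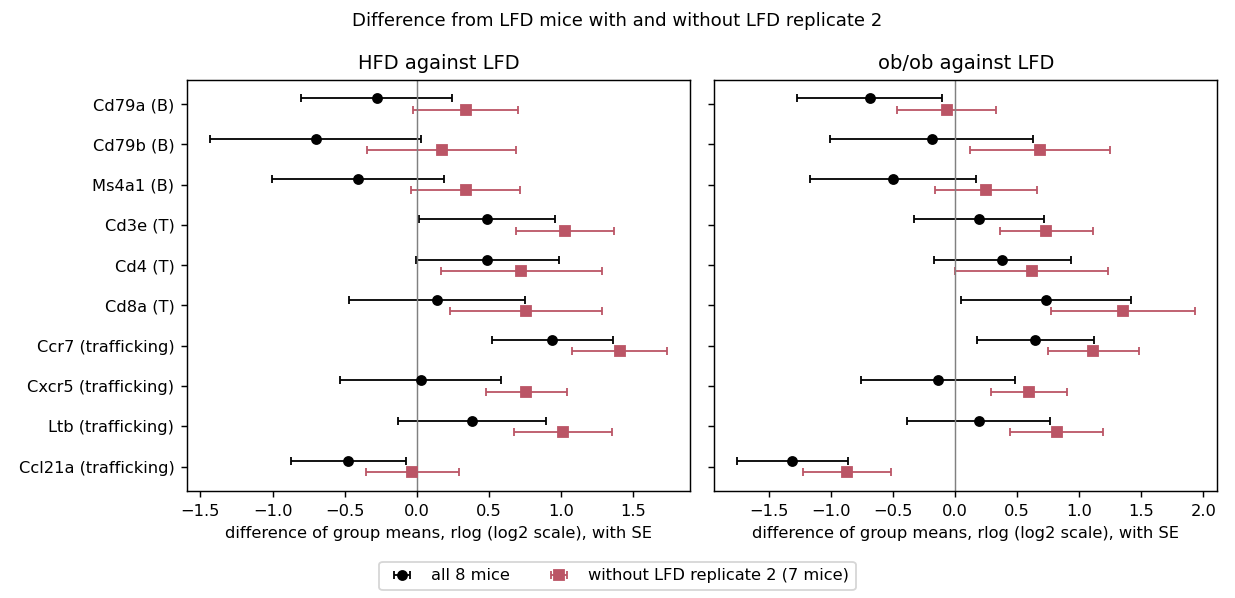
Difference of the group means in rlog value (log2 scale) with the SE from limma, for HFD and ob/ob against LFD, with all 8 mice (circles) and without LFD replicate 2 (squares). In HFD mice the 3 B lymphocyte genes change from negative to positive differences when this mouse is left out, and Ccl21a moves from -0.47 to -0.03.

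Lymphocytes are one part of the leukocytes in the tissue, and the values were therefore also set against Ptprc (CD45), which all leukocytes carry. Ptprc was at 9.33, 9.87 and 8.57 in LFD, at 9.67, 10.33 and 10.61 in HFD, and at 10.09 and 10.41 in ob/ob mice. The difference from LFD was 0.95 (SE 0.35, adjusted p = 0.215) and 0.99 (SE 0.39, adjusted p = 0.245), and 1.25 and 1.30 without LFD replicate 2 (adjusted p = 0.324 and 0.305). Of the other pan-leukocyte genes, Cd53 was the most positive in both groups, 1.31 and 1.57, while Ptprcap, a partner of Ptprc in lymphocytes, was at -0.05 and -0.47. Laptm5 was at 1.37 in ob/ob mice, and Cd52 and Coro1a were at 1.14 and 0.81 in HFD mice. The median over the 6 pan-leukocyte genes was 0.93 in HFD and 1.19 in ob/ob mice, and 1.23 and 1.55 without LFD replicate 2, where Ptprcap was at 0.42 and -0.0003.

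All 10 myeloid genes had a higher mean in both obese groups than in LFD mice, with medians of 1.11 and 1.61, but none passed an adjusted p of 0.05. All 10 were again higher without LFD replicate 2, with medians of 1.17 and 1.61. S100a8 and S100a9 of neutrophils were at 2.65 and 2.52 in HFD mice (adjusted p = 0.150 and 0.162), and the macrophage genes Adgre1 and Fcgr3 were at 1.88 and 1.84 in ob/ob mice (adjusted p = 0.137 and 0.139). Cd14 (0.75 and 0.59), and in HFD mice Cd68 (0.62), were lowest. The mean of the 10 myeloid genes was 8.32 to 8.60 in LFD and 9.24 to 10.29 in obese mice.

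Relative to Ptprc in the same mouse, all 5 obese mice lay below all 3 LFD mice for Cd79a, Cd79b, Ms4a1 and Ccl21a, 4 of 10 genes against 21.1% of all genes. On this scale the median of all genes was itself at -0.92 in HFD and -0.95 in ob/ob against LFD, and each difference carries the spread of Ptprc. For Cd79b, the value minus Ptprc was -4.05, -2.60 and -4.56 in LFD, -5.60, -5.29 and -5.27 in HFD, and -4.62 and -5.22 in ob/ob mice. The lowest LFD mouse, at -4.56, lay just above the highest obese mouse, at -4.62. The HFD difference of -1.65 (SE 0.55) had an adjusted p of 0.0461, the 1 gene of 10 below 0.05 against 9.03% of all genes. Its adjusted p over the other settings was between 0.0773 and 0.880, and without LFD replicate 2 the difference on this scale was -1.08.

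Ccl21a minus Ptprc was -2.34, -1.49 and -1.45 in LFD, -3.17, -3.14 and -3.23 in HFD, and -4.07 and -4.05 in ob/ob mice. The 3 groups were separate, with means of -1.76 ± 0.51 (SD, n = 3), -3.18 ± 0.05 (n = 3) and -4.06 ± 0.01 (n = 2). The share of all genes that separate the 3 groups on this scale was not counted. All obese mice lay below all LFD mice for 21.1% of all genes. The ob/ob difference from LFD of -2.30 (SE 0.57) had an adjusted p of 0.0136, again 1 of 10 genes, against 6.02% of all genes, and its adjusted p over the other settings was between 0.0611 and 0.956. The HFD difference of -1.42 (SE 0.51) had an adjusted p of 0.0586.

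When LFD replicate 2 was left out on the Ptprc scale, Ccl21a was the 1 gene of 10 under 0.05 in HFD mice, at -1.28 (adjusted p = 0.0498), where 30.1% of all genes passed. In ob/ob mice 0 of 10 passed, against 0.00665% of all genes, with Ccl21a at -2.17 (adjusted p = 0.0611). The T lymphocyte genes and Ccr7, Cxcr5 and Ltb overlapped between LFD and obese mice on this scale. With all mice, their HFD differences lay between -0.92 for Cxcr5 and -0.01 for Ccr7, close to or above the median of all genes. Their ob/ob differences lay between -1.13 for Cxcr5, below the median of all genes of -0.95, and -0.26 for Cd8a.

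**Figure D5:**
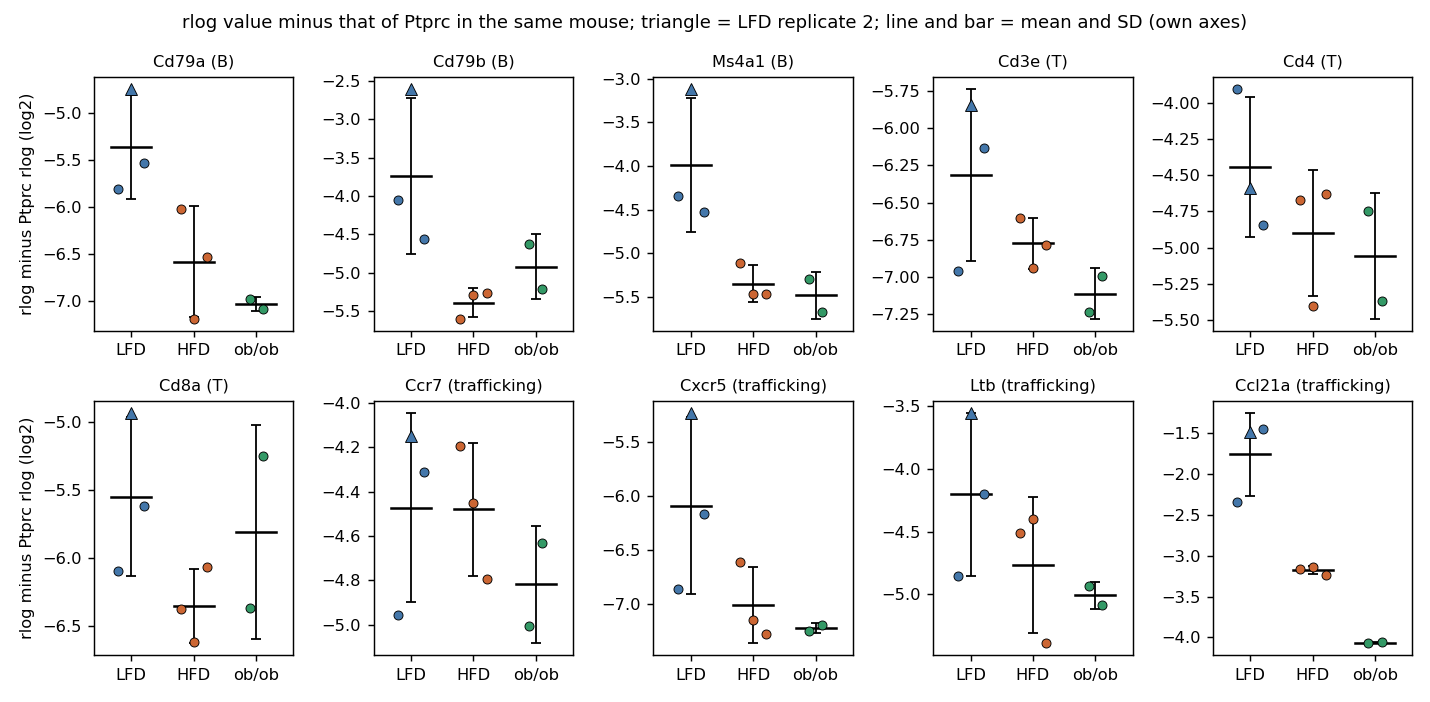
rlog value minus that of Ptprc in the same mouse (log2 scale, own axis in each panel) for the 10 genes, with the mean and SD of each group and LFD replicate 2 as a triangle. For Cd79a, Cd79b, Ms4a1 and Ccl21a the 5 obese mice lie below all LFD mice, as for 21.1% of all genes. For Ccl21a the 3 groups are separate, which was not counted over all genes.

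The genes outside the 10 whose pattern was most like the mean of each set were found by Pearson r over the 8 mice, which share the high value of LFD replicate 2. For the B lymphocyte genes they were Olfr825, Sharpin, Rrp8, Fcer2a and 4632427E13Rik, with r between 0.928 and 0.969. Fcer2a (CD23), a B lymphocyte receptor for IgE, was at 4.14 in LFD replicate 2 and between 2.20 and 2.86 in the other mice, while Sharpin ranged from 7.38 to 8.19. For the T lymphocyte genes they were Fhdc1, Grap2, Zc3h13, Itpr1 and Itgal, with r between 0.932 and 0.950. Grap2, an adaptor of T lymphocyte receptor signalling, was at 4.17, 5.89 and 3.71 in LFD, at 4.30, 5.18 and 5.75 in HFD, and at 5.26 and 5.51 in ob/ob mice. For the trafficking genes they were Ifi214, Gimap8, Pglyrp2, Mettl3 and Lef1, with r between 0.936 and 0.974. Lef1, a transcription factor of naive T lymphocytes, was at 4.33 in LFD replicate 2 and between 2.57 and 3.64 in the others.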

How the data were processed

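Total RNA from the pancreas of 8 male mice was sequenced in paired ends. The authors quantified transcripts of Gencode M18 (GRCm38.p6) with Salmon 0.11.3, summarised them per gene with tximport, and deposited rlog values of DESeq2 1.22.2, which are on a log2 scale. The filter that left 15047 symbols is not described in the sources used here. Counts were not used, so the depth of each mouse is unknown and no counting error is given. Reads that fit several transcripts are assigned by Salmon in proportion to their estimated abundance. No batch is named.

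Mice were grouped by their labels, and each replicate is a different animal. All columns matched a sample by name, and no pair of mice held equal values. The study modelled counts, whereas the deposited log2 values were compared here by limma (3.58.1, R 4.3.3) in a single fit of the 3 group means to 8 mice, where the empirical Bayes variance followed the expression level and p-values were adjusted over all genes by Benjamini-Hochberg. This step was tested on simulated data. The members and the gene lists were chosen with earlier results of these data known, and the lists were written by hand. Named are the 10 members, Ptprc, the 2 highest and 2 lowest differences of each other list in HFD and ob/ob against LFD, and the 5 genes most like each member set. Genes that describe LFD replicate 2 or a cell type, the copies of Ccl21a and genes not in the table were named after their values were seen. Some genes that the lists hold are counted but not reported by name here. Coordinates are from Gencode M21 on GRCm38, the same assembly in another annotation release, and promoters from RefSeq. Alternatives were a variance without trend, a fit of 2 groups only, a minimum mean rlog of 5, centring on the median or on Ptprc, quantile normalization, the replicate number as a block, an acinar covariate, and leaving out each mouse. Centring on Ptprc without LFD replicate 2 and the sum of Ccl21a with Gm21541 were chosen after seeing the data. Figures were drawn with matplotlib 3.10.9 in Python 3.11.15.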

Additional observations from a re-analysis of the deposited data

How the results depend on the processing

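Of the 10 genes, the number with an adjusted p under 0.05 was 0 in all 3 comparisons under all alternatives except those relative to Ptprc, where it was 1 (Cd79b) in HFD and 1 (Ccl21a) in ob/ob against LFD, and 1 (Ccl21a) in HFD with LFD replicate 2 left out as well. The p-values relative to Ptprc can be too small, since all genes share the spread of Ptprc. Directions were less stable, and the cause was not tested. Centring on the median turned Cxcr5 in HFD to -0.06, and quantile normalization turned Cd8a and Cxcr5 in HFD to -0.04 and -0.06 and Ltb in ob/ob mice to -0.10. With the acinar covariate, Cd8a and Cxcr5 in HFD were at -0.59 and -0.16, and Cd3e and Cd8a in ob/ob mice at -0.20 and -0.05. Relative to Ptprc, which lowers all genes, Cd3e, Cd4, Cd8a, Ccr7, Cxcr5 and Ltb in HFD were at -0.46, -0.46, -0.80, -0.01, -0.92 and -0.56, and Cd3e, Cd4, Cd8a, Ccr7 and Ltb in ob/ob mice at -0.80, -0.61, -0.26, -0.35 and -0.80. With LFD replicate 2 left out too, Cd3e, Cd4, Cd8a, Cxcr5 and Ltb in HFD were at -0.23, -0.53, -0.50, -0.49 and -0.24, and Cd3e, Cd4, Ccr7 and Ltb in ob/ob mice at -0.57, -0.68, -0.19 and -0.48.

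When each mouse was left out in turn, the HFD differences from LFD that changed sign went from -0.71 to 0.34 for Cd79a, -1.45 to 0.17 for Cd79b, -1.02 to 0.34 for Ms4a1, -0.05 to 0.80 for Cd4, -0.24 to 0.76 for Cd8a and -0.36 to 0.76 for Cxcr5. Those of ob/ob from LFD went from -0.94 to 0.69 for Cd79b, -1.11 to 0.25 for Ms4a1, -0.09 to 0.74 for Cd3e, -0.16 to 0.69 for Cd4, -0.52 to 0.60 for Cxcr5 and -0.15 to 0.82 for Ltb. Those of ob/ob from HFD went from -0.24 to 0.05 for Ms4a1, -0.30 to 0.23 for Cd4, -0.13 to 1.31 for Cd8a, -0.64 to 0.06 for Ccr7, -0.36 to 0.03 for Cxcr5 and -0.33 to 0.06 for Ltb. Over all genes, leaving out HFD replicate 1 gave 2812 genes under 0.05 in HFD and 89 in ob/ob against LFD, and leaving out ob/ob replicate 1 gave 61 in ob/ob against LFD, where the remaining ob/ob mouse is assumed to vary like the other groups. None of them was one of the 10.

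The replicate numbers do not pair the mice, which are different animals, and the deviations of same-numbered LFD and HFD mice had correlations of -0.06, 0.11 and -0.28. For the 2 numbers that ob/ob mice share, they were -0.10 and 0.13 with LFD and 0.59 and 0.30 with HFD mice, so not every pair exceeded 0.1. In a group of 2 both mice deviate by equal amounts in opposite directions, so the ob/ob correlations of both numbers are not independent. With the replicate block, 0 of the 10 genes had an adjusted p under 0.05 in each comparison, and Ltb in ob/ob against LFD turned to -0.04. A minimum mean rlog of 5 removed Cd79a, Ms4a1, Cd3e, Cd8a and Cxcr5, so no value was obtained for those. The groups of 3, 3 and 2 mice limit the precision, and the depth is unknown.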
